A study of Mus musculus with 15 samples.

Results

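The enzymes and transporters that carry glucose carbon from the cell membrane through glycolysis, pyruvate dehydrogenase and the tricarboxylic acid (TCA) cycle were followed in mouse hearts after sepsis. A list of 46 genes was matched by symbol to probe sets that the platform annotation pairs with exactly 1 gene, and the mean of a gene's probe sets was taken. Of the 46, 42 were measured, by 81 probe sets, among 12393 genes in all. They comprised 18 of 21 glycolytic genes and 24 of 25 genes of the mitochondrial steps and the shuttles that feed them. Gpi1, Pfkfb1, Eno1 and Pdhx had no such probe set and were dropped. Of the 42, 16 had only 1 probe set, among them Eno3, Dld, Idh2, Suclg1, Sucla2, Suclg2 and Got1.

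Glycolysis splits glucose into pyruvate in the cytosol, and lactate dehydrogenase converts pyruvate to lactate and back. The pyruvate dehydrogenase complex commits pyruvate to the mitochondria as acetyl-CoA, which the TCA cycle oxidises to supply the respiratory chain. The adult heart draws most of its energy from mitochondrial oxidation, mainly of fatty acids, and keeps glucose and lactate as further fuels.

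The study asked how the hearts of septic mice differ in gene expression, and divided its wild-type septic mice into groups labelled Max Dep and Min Dep, in a series on sepsis-induced myocardial depression. The septic mice had undergone caecal ligation and perforation (CLP): the gut pouch is tied off and punctured, and its bacteria spill into the abdomen. Sham mice had the abdomen opened and the caecum handled but not punctured. Total RNA of whole hearts taken 48 h after surgery was hybridised to oligonucleotide arrays, with 15 arrays in 5 groups of 3. The wild-type groups were C57/BL6 mice after CLP with the label Max Dep, after CLP with the label Min Dep, and after sham surgery. The knockout groups were congenic B6.129P2-Nos2tm1Lau/J mice, which lack the inducible nitric oxide synthase in all cells from the germ line on, after CLP and after sham surgery. All groups received buprenorphine and saline after surgery, and ketamine and xylazine before a catheter measured heart function and the heart was removed. The labels do not spell out Max Dep and Min Dep and give no age or sex.

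Wild-type and knockout values came in separate tables from different array models, so genotype and table cannot be told apart, and the Nos2 level could not be set between the genotypes. Wild-type values are standardised units: each probe set's values are scaled over the 9 arrays. A small and a large change thus look alike, no fold can be given and levels of different genes cannot be compared. A gene's mean is drawn towards 0 where its probe sets disagree, so gene means are not all on the same scale. If all variation lay between the groups, CLP minus sham would reach about 2 in these units. Knockout values are centred scores of the kind that a log scale gives. They are called log units here, but scale and base are not stated, so no fold can be read from them. The knockout column of CLP replicate 1 lay between the other 2 CLP columns in 76% of probe sets, had an SD of 0.683 against 0.979 to 1.09 in the other columns, and was left out of the fit. No intensities were used, so signal over background is unknown, and precision rests on the number of arrays and the spread between them. Each array has its own code in the labels, and p-values measure the spread between these arrays.

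Some of the members' promoters carry short motifs of regulators known from this pathway: TNAAGGTCA, bound by the estrogen-related receptors, which drive mitochondrial genes in the heart, and the cores ACGTG or GCGTG, bound by hypoxia-inducible factor, a regulator of glycolytic genes. RefSeq promoters (build GRCm38.p6, 250 bases before to 50 after a start) were found for 17 of 18 glycolytic and 22 of 24 mitochondrial and shuttle genes, with 28 promoters in each set, and both strands were searched. TNAAGGTCA stood in 3.57% of the glycolytic promoters (Tpi1) and 3.57% of the mitochondrial and shuttle promoters (Sdhd), against 1.28% of all 32851 promoters. Each of the first 2 shares is 1 promoter of 28. Both matches begin after the annotated start, by 8 bases in Tpi1 and 36 in Sdhd. ACGTG or GCGTG stood in 82.1% of the glycolytic and 71.4% of the mitochondrial and shuttle promoters, against 43.8% of all. Some genes have several promoters whose windows overlap, as Ogdh does, so promoters are not independent. Counted by gene, the shares were 88.2% and 68.2%, against 46.7% of all genes with a promoter. The 4 promoters below belong to the gene that passed the test in wild-type hearts (Cs), to a glycolytic gene that was low and one that was high on every septic array (Pgk1 and Ldhb), and to the mitochondrial gene with the first motif (Sdhd). Capitals mark the searched motifs on either strand, and a match is a description of the letters and not a binding site.
Cs, chr10:128337477-128337776, + strand: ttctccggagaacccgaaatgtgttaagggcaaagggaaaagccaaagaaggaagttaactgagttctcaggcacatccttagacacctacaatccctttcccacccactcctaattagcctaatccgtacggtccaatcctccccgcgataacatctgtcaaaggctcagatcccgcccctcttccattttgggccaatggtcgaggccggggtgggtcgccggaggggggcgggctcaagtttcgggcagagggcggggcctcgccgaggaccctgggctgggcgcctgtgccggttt
Pgk1, chrX:106186850-106187149, + strand: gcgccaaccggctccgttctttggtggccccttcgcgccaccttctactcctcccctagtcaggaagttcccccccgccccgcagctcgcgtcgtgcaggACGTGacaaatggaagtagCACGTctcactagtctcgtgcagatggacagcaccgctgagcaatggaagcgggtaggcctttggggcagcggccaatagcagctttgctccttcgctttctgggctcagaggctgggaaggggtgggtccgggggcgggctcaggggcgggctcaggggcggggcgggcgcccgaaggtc
Ldhb, chr6:142507908-142508207, - strand: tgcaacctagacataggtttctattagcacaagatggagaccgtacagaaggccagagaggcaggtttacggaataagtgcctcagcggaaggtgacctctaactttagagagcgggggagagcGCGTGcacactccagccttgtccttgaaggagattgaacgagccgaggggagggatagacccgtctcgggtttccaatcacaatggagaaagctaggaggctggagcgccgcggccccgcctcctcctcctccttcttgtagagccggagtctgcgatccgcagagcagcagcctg
Sdhd, chr9:50603800-50604099, - strand: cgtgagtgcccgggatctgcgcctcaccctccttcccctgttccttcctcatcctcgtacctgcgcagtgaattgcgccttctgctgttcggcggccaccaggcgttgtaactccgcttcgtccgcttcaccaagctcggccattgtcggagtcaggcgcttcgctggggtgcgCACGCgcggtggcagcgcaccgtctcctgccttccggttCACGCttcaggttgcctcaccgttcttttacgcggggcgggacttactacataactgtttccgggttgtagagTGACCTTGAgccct
Pgk1 holds ACGTG once on each strand, Ldhb holds GCGTG once, and Sdhd holds GCGTG 2 times on the other strand. The Cs window holds none of these letters. Pgk1 and Ldhb were chosen for lying on opposite sides of sham in the septic hearts, and both carry a core of the second kind. So did 15 of the 17 glycolytic genes with a promoter. A link between motif and direction was not tested.

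In wild-type hearts after CLP most of the measured enzymes lay below their sham level. Of the 42 genes, 34 had a negative CLP minus sham difference, a share to be read beside 49.2% of all genes. The median difference was -0.64 over the 18 glycolytic genes and -1.42 over the 24 mitochondrial and shuttle genes, against 0.02 over all genes. Over single probe sets in place of gene means the glycolytic median was -0.095 and the mitochondrial and shuttle median -1.59. Units are scaled per probe set, so a median does not give the size of a change, and the difference between the sets was not tested. On single arrays 18 of the 42 were lower on all 6 CLP arrays than on all 3 sham arrays, where 6.11% of all genes were, and 4 were higher, where 5.89% were. With limma and Benjamini-Hochberg adjustment over all genes, 1 of the 42 passed the threshold of 0.05, against 0.718% of all genes (0.379% lower and 0.339% higher). A further 13 had an adjusted p between that threshold and 0.1. At an unadjusted p under 0.05 there were 17 lower and 4 higher, beside 9.38% and 9.23% of all genes. The count of 1 was 5 without Min Dep replicate 2 and 0 without any single one of the other 8 arrays. How many of all genes passed in these fits is not given here, so the 5 cannot be read as particular to the members.

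**Figure D1:**
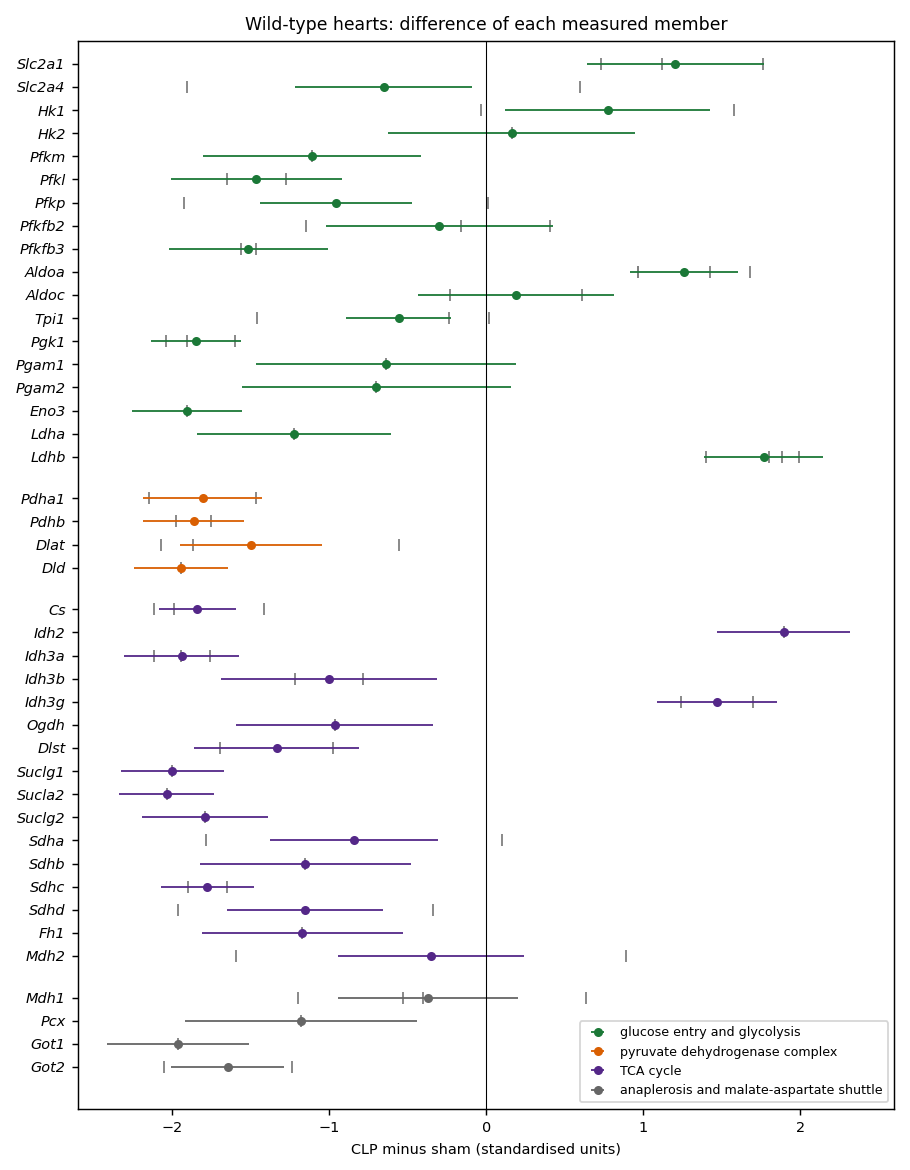
CLP minus sham in wild-type hearts (standardised units, x axis) for each of the 42 measured genes, ordered by pathway step. Points are the mean of a gene's probe sets with its standard error, and grey ticks are the single probe sets. The pyruvate dehydrogenase genes all lie left of 0, whereas Ldhb, Idh2 and Idh3g lie right of it.

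The glucose transporters and the first enzymes of glycolysis showed no common direction. Slc2a1, the basal glucose transporter, differed by 1.20 ± 0.56 (difference ± SE, CLP minus sham; adjusted p = 0.324), and Slc2a4, the insulin-responsive transporter of muscle, by -0.65 ± 0.56. The 2 probe sets of Slc2a4 disagreed, at -1.90 and 0.60. The hexokinases, which trap glucose as its phosphate, differed by 0.77 ± 0.65 (Hk1) and 0.16 ± 0.79 (Hk2), and the probe sets of Hk1 gave -0.03 and 1.58. Hk2 was spread widely within one septic group: the Min Dep arrays read -0.25, -0.26 and 2.74, and the Max Dep arrays 0.29, -0.75 and -1.34, against -0.14, -0.21 and 0.08 in sham. The highest and the lowest Hk2 values were thus both septic.

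All 3 phosphofructokinase genes, which encode the committed step of glycolysis, had negative differences as gene means. Pfkl, the liver-type subunit, read 0.13, -0.02 and 0.15 in Max Dep hearts and -0.36, -0.35 and -2.57 in Min Dep hearts, against 0.59, 1.30 and 1.00 in sham hearts. Every septic value lay below every sham value, and the difference of -1.46 ± 0.54 did not pass (adjusted p = 0.234). Pfkm, the muscle subunit, differed by -1.11 ± 0.69 and Pfkp, the platelet-type subunit, by -0.96 ± 0.49, and their groups overlapped. The 2 probe sets of Pfkp gave 0.01 and -1.93. Pfkfb3, which makes the activator fructose 2,6-bisphosphate, read -1.07, 0.09 and 0.02 (Max Dep) and -1.09, -0.07 and -0.83 (Min Dep), against 0.48, 2.08 and 0.51 (sham). The groups did not overlap, and the difference was -1.52 ± 0.51 (adjusted p = 0.195). Its relative Pfkfb2, the heart isoform, differed by -0.30 ± 0.73, with both signs among its probe sets.

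In the middle of the pathway aldolase and phosphoglycerate kinase went opposite ways. Aldoa, the muscle aldolase that splits fructose bisphosphate, averaged 0.42 ± 0.43 on the CLP arrays (SD, n = 6) and -0.84 ± 0.62 in sham (SD, n = 3). Every septic value lay above every sham value, at a difference of 1.26 ± 0.34 (adjusted p = 0.136). All 4 Aldoa probe sets are of a type that may share sequence with other transcripts. Aldoc, the brain-type aldolase, differed by 0.19 ± 0.63, with probe sets at 0.61 and -0.23. Pgk1, the first ATP-yielding enzyme of the pathway, read -0.26, -0.19 and 0.11 in Max Dep hearts and -1.15, -0.43 and -1.77 in Min Dep hearts, against 1.22, 1.30 and 1.19 in sham hearts. The sham values lay close together and far above all septic ones, and the difference was -1.85 ± 0.29 (adjusted p = 0.0543). Tested singly, 2 of its 3 probe sets passed (-2.04 and -1.91, adjusted p = 0.0307 for each), where 11 of the members' 81 probe sets passed (13.6%), beside 2.52% of all probe sets.

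In lower glycolysis Eno3, the muscle enolase, read -0.64, -0.13 and -0.29 (Max Dep) and -1.43, 0.02 and -1.25 (Min Dep), against 1.48, 1.29 and 1.08 (sham). Its groups were far apart, and the difference of -1.91 ± 0.35 did not pass (adjusted p = 0.0697); its isoform Eno1 was among the genes dropped. The phosphoglycerate mutases differed by -0.64 ± 0.83 (Pgam1, widely expressed) and -0.70 ± 0.86 (Pgam2, the muscle form). Septic and sham values of both overlapped.

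The lactate dehydrogenase subunits lay on opposite sides of sham. Ldhb, the heart-type subunit, read 0.02, 0.68 and 1.18 in Max Dep hearts and 0.36, 0.02 and 1.38 in Min Dep hearts, against -1.36, -1.07 and -1.06 in sham hearts. All septic values were the higher ones, and the difference was 1.77 ± 0.38 (adjusted p = 0.0876). Its 4 probe sets lay between 1.40 and 1.99, and the highest of them passed on its own (adjusted p = 0.0338). Ldha, the muscle-type subunit, read 0.57, -0.40 and 0.57 (Max Dep) and -0.10, -0.59 and -2.68 (Min Dep), against 1.15, 0.59 and 0.62 (sham). Every septic value was below the sham range, the nearest of them only just, and the difference was -1.22 ± 0.62 (adjusted p = 0.359). Whether the change of Ldha and that of Ldhb differ was not tested.

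**Figure D2:**
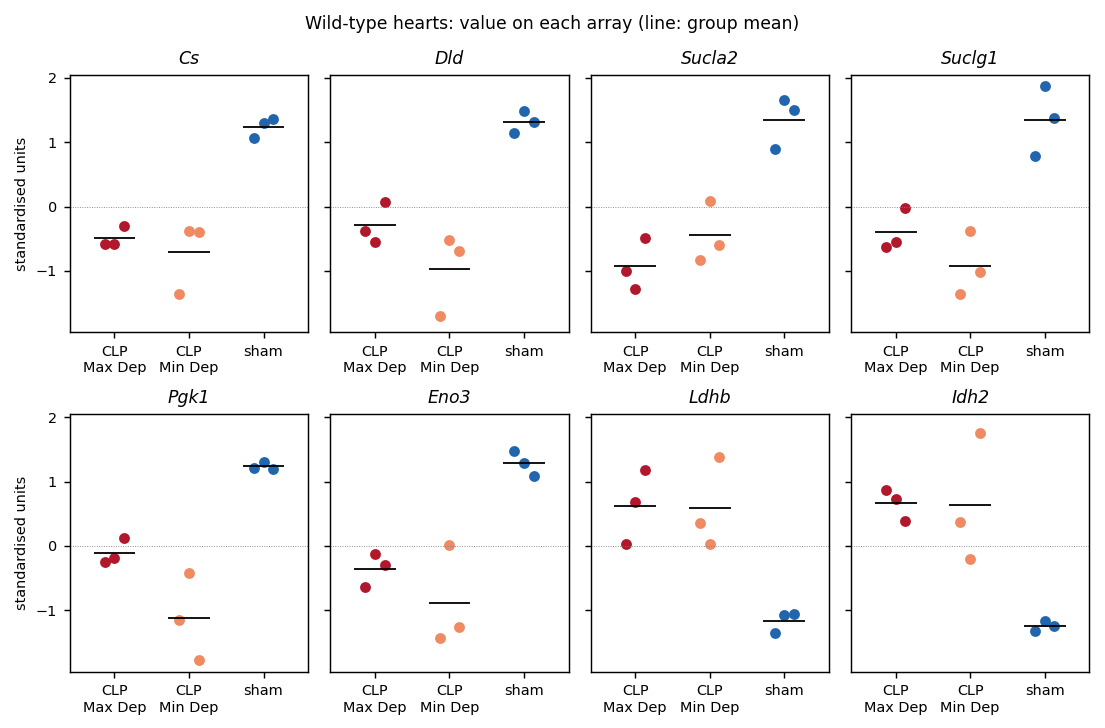
Value on each wild-type array (standardised units, y axis) for 8 genes in CLP Max Dep, CLP Min Dep and sham hearts; points are arrays and lines are group means. In the first 6 panels all septic points lie below the sham points, and in Ldhb and Idh2 all lie above them.

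All 4 measured subunits of the pyruvate dehydrogenase complex were lower on every CLP array than on every sham array, with a median difference of -1.84, and none passed the test. Dld, the shared lipoamide dehydrogenase subunit, read -0.39, -0.55 and 0.07 (Max Dep) and -1.70, -0.51 and -0.69 (Min Dep), against 1.14, 1.49 and 1.31 (sham). Every septic value was at or below 0.07 and every sham value at or above 1.14, at a difference of -1.94 ± 0.30 (adjusted p = 0.0543). Pdhb, the beta subunit of the decarboxylase, averaged -0.63 ± 0.58 on CLP arrays and 1.24 ± 0.13 in sham (difference -1.87 ± 0.32, adjusted p = 0.0607). Pdha1, the catalytic alpha subunit, differed by -1.81 ± 0.38, and 1 of its 2 probe sets passed singly at -2.15 (adjusted p = 0.0215). Dlat, the acetyl-transferring core, differed by -1.50 ± 0.45, with probe sets from -2.07 to -0.56.

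Citrate synthase (Cs), which admits acetyl-CoA to the TCA cycle and is a common marker of mitochondrial content, was the gene that fell. It read -0.58, -0.58 and -0.31 in Max Dep hearts and -1.36, -0.38 and -0.40 in Min Dep hearts, against 1.07, 1.30 and 1.36 in sham hearts. The septic groups did not reach the sham range anywhere, and the difference was -1.84 ± 0.25 (adjusted p = 0.0480). Its 3 probe sets gave -2.12, -1.99 and -1.42. The call was lost under eBayes moderation (adjusted p = 0.0969), with RNA-end signal as a covariate (adjusted p = 0.190) and without any 1 of 8 of the 9 arrays (adjusted p from 0.0571 to 0.176).

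The isocitrate dehydrogenases divided. Idh2, the NADP-dependent mitochondrial enzyme, read 0.87, 0.73 and 0.39 (Max Dep) and 0.38, -0.21 and 1.75 (Min Dep), against -1.32, -1.17 and -1.25 (sham). All septic values were higher, at a difference of 1.90 ± 0.42 (adjusted p = 0.0962) that rests on 1 probe set. Of the NAD-dependent enzyme that serves the cycle itself, the catalytic subunit Idh3a differed by -1.94 ± 0.37 (adjusted p = 0.0725), and each of its 3 probe sets was below -1.7. The regulatory subunit Idh3g differed by 1.47 ± 0.38 (adjusted p = 0.128), with no overlap of the groups, and Idh3b by -1.003 ± 0.69 with overlap. Subunits of this single enzyme therefore had differences of both signs, of which none passed.

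All 3 succinyl-CoA ligase genes were lower on every septic array than on every sham array. Sucla2, the ATP-forming beta subunit, read -1.01, -1.29 and -0.49 in Max Dep hearts and -0.82, 0.09 and -0.59 in Min Dep hearts, against 0.89, 1.65 and 1.50 in sham hearts. The difference of -2.04 ± 0.30 was the most negative of the 42 gene means and missed the threshold (adjusted p = 0.0543). It rests on 1 probe set, and single probe sets of Pdha1 (-2.15) and Cs (-2.12) lay lower. Suclg1, the alpha subunit that both forms share, read -0.62, -0.55 and -0.02 (Max Dep) and -1.36, -0.37 and -1.02 (Min Dep), against 0.79, 1.87 and 1.37 (sham). Its sham values were spread more than those of Cs, and the difference was -2.002 ± 0.33 (adjusted p = 0.0569). Suclg2, the GTP-forming beta subunit, differed by -1.79 ± 0.40 (adjusted p = 0.0962), again without overlap. When the arrays' own standardisation was undone, Sucla2 and Suclg1 passed as well (adjusted p = 0.0403 and 0.0485).

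The 4 subunits of succinate dehydrogenase, shared by the cycle and respiratory complex II, all had negative differences, and 1 was clear of sham on every array. Sdhc, a membrane anchor, averaged -0.58 ± 0.50 on CLP arrays and 1.19 ± 0.19 in sham (difference -1.78 ± 0.30, adjusted p = 0.0573). Sdhd, the other anchor, differed by -1.15 ± 0.50 with probe sets at -1.96 and -0.34, and the flavoprotein Sdha by -0.84 ± 0.54 with probe sets at -1.79 and 0.10. The iron-sulphur subunit Sdhb (-1.15 ± 0.67) and fumarase, Fh1 (-1.17 ± 0.64), overlapped sham. Of the oxoglutarate dehydrogenase pair, the core Dlst differed by -1.34 ± 0.53 without overlap and Ogdh by -0.97 ± 0.63 with it. Among the mitochondrial and shuttle genes the malate dehydrogenases were nearest to 0, at -0.35 ± 0.59 (Mdh2, mitochondrial) and -0.37 ± 0.57 (Mdh1, cytosolic). The probe sets of each had both signs.

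The aminotransferases of the malate-aspartate shuttle, which moves reducing equivalents into mitochondria, lay below sham on every septic array. The cytosolic form, Got1, differed by -1.96 ± 0.46 (adjusted p = 0.101) and the mitochondrial form, Got2, by -1.65 ± 0.36 (adjusted p = 0.0904). Pyruvate carboxylase, Pcx, which refills the cycle with oxaloacetate, differed by -1.18 ± 0.74 on its regular probe set with overlapping groups.

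Other genes of the same pathways, taken from a separate list, ran the same way. Of 16 measured genes of glycolysis and pyruvate handling 12 had negative differences (median -1.08), 1 fell and none rose. The one that fell was Pdk4, a kinase that switches pyruvate dehydrogenase off: it read -0.22, -1.26 and -0.23 (Max Dep) and -0.88, -0.55 and -1.12 (Min Dep), against 1.64, 1.30 and 1.19 (sham), a difference of -2.08 ± 0.29 (adjusted p = 0.0498). That is just under the threshold. Under eBayes moderation no gene of all passed, so the Pdk4 call was lost there. Pkm, pyruvate kinase of muscle, differed by -2.05 ± 0.33 (adjusted p = 0.0544), Mpc1, a subunit of the mitochondrial pyruvate carrier, by -1.99 ± 0.41, and Pdk2, another inhibitory kinase, by 1.69 ± 0.37. Pdk4 and its target complex were thus both on the low side, while Pdk2 was on the high side of sham without passing (adjusted p = 0.0888). Of 14 measured genes of the cycle's side branches and shuttles 12 had negative differences (median -0.87) and none passed, among them Slc25a11, the oxoglutarate-malate carrier (-2.05 ± 0.32), and Glud1, glutamate dehydrogenase (-1.99 ± 0.31), each with an adjusted p of 0.0543.

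Markers of other cells moved with the same comparison. All 14 macrophage and monocyte markers had positive differences and 2 rose, with summed levels (the mean over the list on an array) of 0.35 to 1.17 in Max Dep hearts and 0.17 to 0.46 in Min Dep hearts, against -1.38 to -0.67 in sham hearts. Of 10 neutrophil markers 8 had positive differences and 2 rose, and of 8 endothelial markers 6 had positive differences and none passed. The macrophage and neutrophil calls were lost under eBayes moderation, where no gene of all passed. All 9 fibroblast markers had negative differences, none past the threshold, with summed levels of -0.48 to 0.08 (Max Dep) and -1.65 to 0.34 (Min Dep), against 0.99 to 1.09 (sham). All 5 adipocyte markers measured did too, at -1.40 to -0.08 (Max Dep) and -0.58 to -0.01 (Min Dep), against 0.04 to 1.34 (sham). Of 10 cardiomyocyte markers 8 had negative differences, with a median of -0.18 and no call, and summed levels of -0.40 to 0.43 (Max Dep) and -0.95 to 0.07 (Min Dep), against 0.16 to 0.46 (sham). Values centred per gene cannot show whether a marker is present or absent. The difference between the 5' and 3' control probe sets of Gapdh and Actb was -1.85 to 0.53 in Max Dep hearts and -0.56 to 0.07 in Min Dep hearts, against 0.39 to 1.76 in sham hearts. Each probe set is standardised on its own, so this is not a ratio of 5' to 3' signal and only an indirect sign of RNA integrity. With that difference as a covariate (RNA-end signal) the median of the mitochondrial and shuttle genes was -1.72 and that of the glycolytic genes -0.59. Such a fit cannot be read as an adjustment for RNA degradation. The part of cell mixture in these results was not tested, and in whole hearts fewer cells of a type and less RNA per cell cannot be told apart.

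Set against sham one at a time, both septic groups had the same side for most members. The 2 comparisons use the same 3 sham hearts. In Max Dep hearts 34 of the 42 had negative differences, where 53.2% of all genes did, and none passed, against 0.452% of all genes; 20 were lower than sham on every array, where 12.7% of all genes were, and 6 were higher, where 13.8% were. The median was -0.45 for the glycolytic and -1.58 for the mitochondrial and shuttle genes, against -0.09 for all genes. The glycolytic median was -0.16 without Max Dep replicate 3, -0.24 without sham replicate 3 and -0.0023 over single probe sets. The smallest adjusted p-values belonged to Sucla2 (-2.28 ± 0.35, adjusted p = 0.0711) and Cs (-1.73 ± 0.28, adjusted p = 0.0792), followed by Suclg2 (-2.22 ± 0.46, adjusted p = 0.111). Among glycolytic genes Ldhb (1.79 ± 0.44), Eno3 (-1.64 ± 0.40) and Pgk1 (-1.35 ± 0.33) had the smallest, at 0.134, 0.135 and 0.135. At an unadjusted p under 0.05 the Max Dep hearts had 13 of the 42 lower and 4 higher, beside 7.84% and 8.87% of all genes.

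In Min Dep hearts none of the 42 passed either, against 0.0565% of all genes (0.0161% higher). On every array 22 were lower than sham, where 12.4% of all genes were, and 4 were higher, where 10.9% were. The median was -0.94 for the glycolytic and -1.48 for the mitochondrial and shuttle genes, against 0.12 for all genes. Without sham replicate 3 the glycolytic median was -0.54. Pgk1 (-2.35 ± 0.33, adjusted p = 0.0682), Cs (-1.95 ± 0.28, adjusted p = 0.0709), Dld (-2.28 ± 0.35, adjusted p = 0.0724), Suclg1 (-2.26 ± 0.38, adjusted p = 0.0773) and Eno3 (-2.17 ± 0.40, adjusted p = 0.0882) stood lowest in adjusted p by the rule for named genes. Without Min Dep replicate 2, Pgk1 and Eno3 passed, in a fit whose count over all genes is not given here. At an unadjusted p under 0.05 there were 19 of the 42 lower and 4 higher, beside 8.77% and 7.65% of all genes. The 22 genes clear of sham in both groups on one side included all 4 pyruvate dehydrogenase subunits, Cs and all 3 succinyl-CoA ligase genes.

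**Figure D3:**
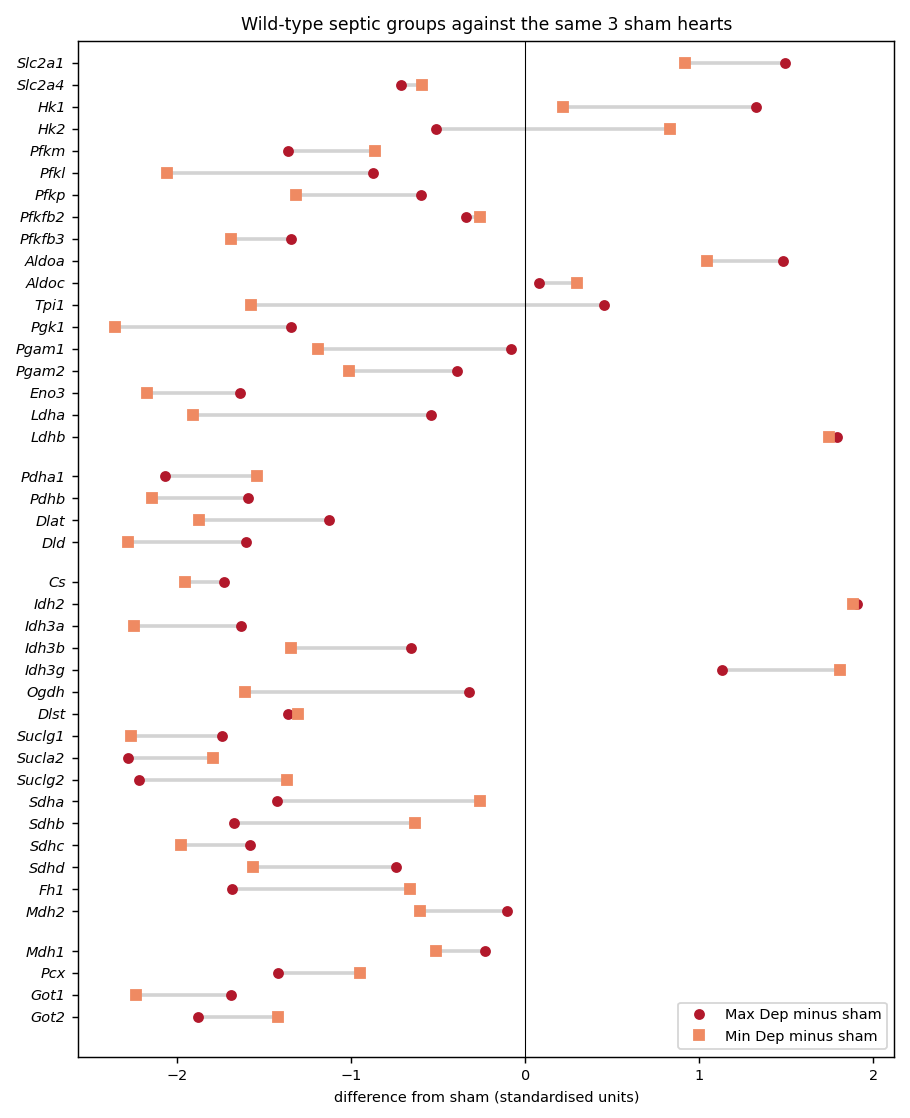
Difference from sham (standardised units, x axis) in Max Dep (circles) and Min Dep (squares) hearts for the 42 genes, both against the same 3 sham hearts. Tpi1 and Hk2 have their points on opposite sides of 0, and the other genes have both points on one side.

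Between Max Dep and Min Dep hearts no gene passed, in the list or among all 12393 (0% of all genes), while 1216 genes, 9.81%, had an unadjusted p under 0.05. Of the 42, 2 were higher at that level and 0 lower, beside 5.21% and 4.6% of all genes, and 15 had negative differences, beside 53.3% of all genes. With every probe set tested, and under eBayes moderation, the count was also 0. Tpi1, triose-phosphate isomerase, read 0.40, 0.94 and 1.17 in Max Dep hearts and -0.75, -0.80 and -2.02 in Min Dep hearts, beside 0.38, 0.38 and 0.39 in sham hearts. The Max Dep values lay above every sham value, the nearest only just, and the Min Dep values well below it. The difference between the septic groups was 2.03 ± 0.39 (adjusted p = 0.313). The 3 probe sets of Tpi1 disagreed in sign for CLP as a whole, at -1.46, -0.24 and 0.02. They also disagreed for Max Dep minus sham, at -0.51, 0.56 and 1.31 in the same order. Pgk1 differed by 1.01 ± 0.33 (adjusted p = 0.444), and the 3 Max Dep values were all above the 3 Min Dep values.

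Other glycolytic genes with a positive Max Dep minus Min Dep difference were Ldha (1.37 ± 0.71) and Pfkl (1.18 ± 0.63), and for both the lowest value was that of Min Dep replicate 3 (-2.68 and -2.57). That array held the lowest value of 7 of the 18 glycolytic genes. The median Max Dep minus Min Dep difference was 0.55 for the glycolytic and 0.25 for the mitochondrial and shuttle genes, against -0.08 for all genes. With the arrays' standardisation undone these medians were 0.28 and 0.10. The mitochondrial and shuttle median was 0.03 without Min Dep replicate 1 and 0.15 without either Max Dep replicate 2 or Max Dep replicate 3. Groups did not overlap for Pfkl, Tpi1, Pgk1 and Ogdh, which were higher in Max Dep hearts (7.89% of all genes were), and Idh3g, which was lower (7.43% were). At 4 of 42 the share of higher members is close to the background, and at 1 of 42 the share of lower members is below it. Within the mitochondrial set the smallest p-values belonged to Dld (0.68 ± 0.35), Suclg2 (-0.85 ± 0.46) and Sdha (-1.17 ± 0.62), with adjusted p of 0.562 or more.

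The array means of the 2 sets set this side by side. The mean of the 18 glycolytic genes was 0.15, -0.02 and 0.17 on the Max Dep arrays and -0.12, -0.52 and -0.52 on the Min Dep arrays, against -0.03, 0.38 and 0.48 on the sham arrays. The Max Dep values lay within the sham range and the Min Dep values below it. The mean of the 24 mitochondrial and shuttle genes was -0.50, -0.49 and -0.11 (Max Dep) and -0.68, -0.24 and -0.32 (Min Dep), against 0.61, 0.94 and 0.82 (sham). Both septic groups lay entirely below sham in this set. These means describe the lists and were given no test.

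**Figure D4:**
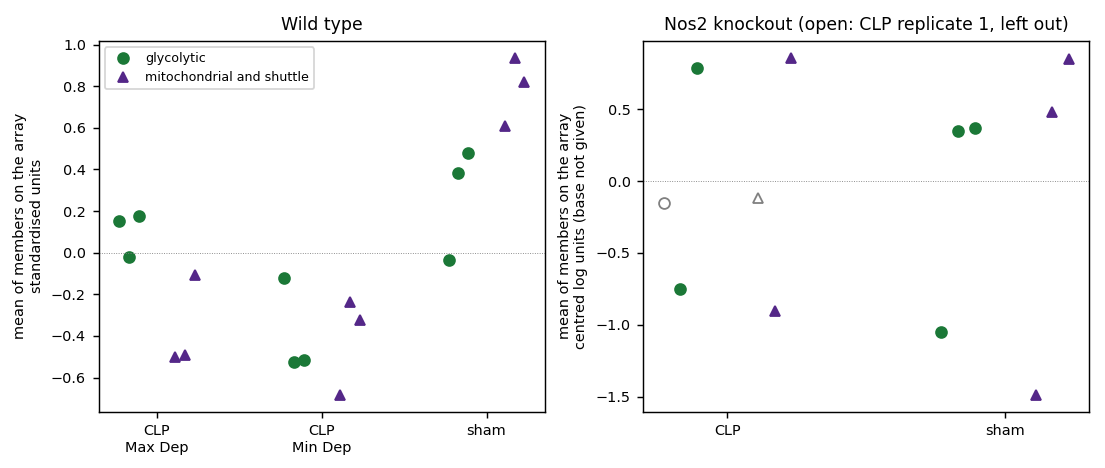
Mean of the glycolytic (circles) and the mitochondrial and shuttle genes (triangles) on each array, in standardised units for wild-type hearts (left) and centred log units for Nos2 knockout hearts (right); the open symbols are knockout CLP replicate 1. Septic triangles of the wild type lie below the sham triangles, whereas the knockout arrays spread as widely within sham as between groups.

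In Nos2 knockout hearts no member passed, and no gene of the 12393 did (0% of all genes, with limma and eBayes on 2 CLP and 3 sham arrays), while 1476 genes, 11.9%, had an unadjusted p under 0.05. Of the 42, 4 were higher at that level and 0 lower, beside 5.83% and 6.08% of all genes. With every probe set tested the count was 0 as well. The median difference was -0.40 for the glycolytic and -0.06 for the mitochondrial and shuttle genes, against 0.03 for all genes. On every array 4 of the 42 were higher after CLP, where 15% of all genes were, and 0 were lower, where 14% were. The 4 were Slc2a1, Pfkfb2, Pgam1 and Pcx.

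Slc2a1, the basal glucose transporter, read 2.61 and 1.98 log units in knockout CLP hearts (replicates 2 and 3), against -0.43, 0.17 and -0.79 in knockout sham hearts. Both septic values were far above sham, with a difference of 2.65 ± 0.49 (adjusted p = 0.110). Pcx read 1.69 and 2.91 after CLP, against -0.17, -0.31 and 0.00 after sham surgery (difference 2.46 ± 0.51, adjusted p = 0.133). That value comes from 1 probe set: the 4 Pcx control probe sets gave 2.45, 0.37, 0.17 and -0.16, and the mean of all 5 gave 1.06 ± 0.45 (adjusted p = 0.430). With CLP replicate 1 kept in the fit Slc2a1 (2.38, adjusted p = 0.0447) and Pcx on its regular probe set (2.24, adjusted p = 0.0461) passed, as did 295 of the 12393 genes. Pgam1 read 1.50 and 1.26 after CLP, against -1.57, -0.89 and 0.00 after sham surgery, and its difference of 2.20 ± 0.56 did not pass (adjusted p = 0.198). Pfkfb2 read 0.50 and 1.62, against -0.21, -0.38 and -0.54, with a difference of 1.44 ± 0.49 (adjusted p = 0.314).

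**Figure D5:**
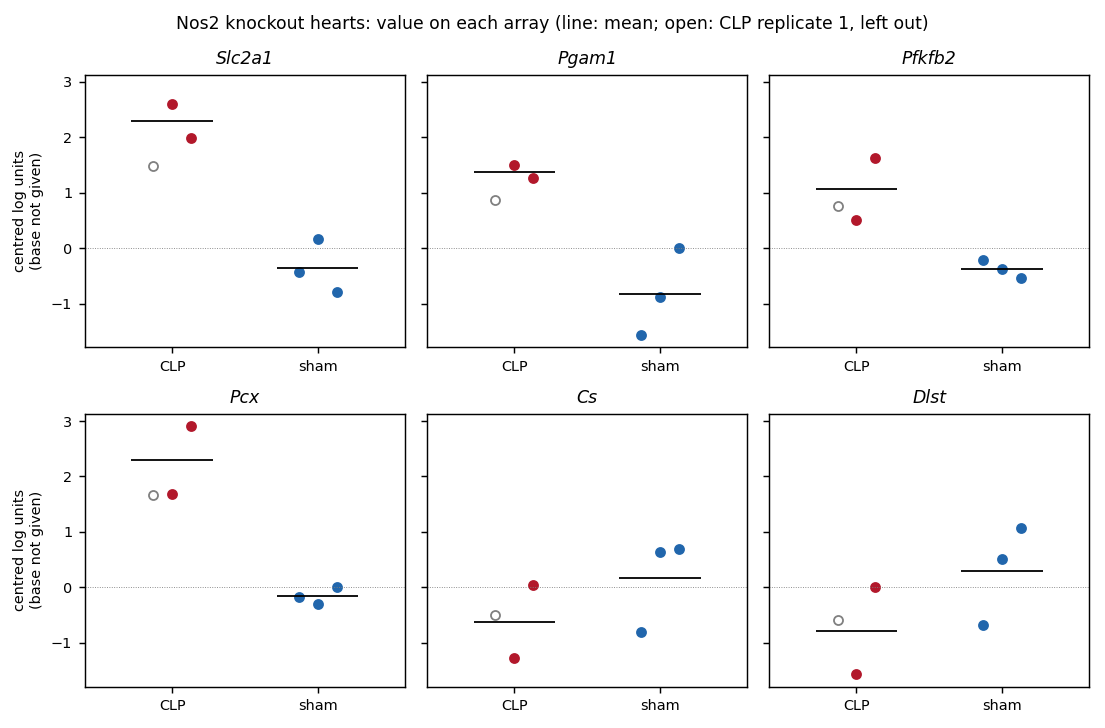
Value on each Nos2 knockout array (centred log units of unstated base, y axis) for 6 genes after CLP and after sham surgery; lines are means, and open circles are CLP replicate 1, which was left out. Slc2a1, Pgam1, Pfkfb2 and Pcx have all CLP points above the sham points, whereas Cs and Dlst overlap.

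Cs and Dlst, both clear of sham in wild-type hearts, overlapped it in knockout hearts. Cs read -1.28 and 0.04 in knockout CLP hearts, against -0.81, 0.65 and 0.70 in knockout sham hearts. Sham replicate 1 lay within the septic range, and the difference was -0.80 ± 0.67 (adjusted p = 0.738), with probe sets at -1.51, -0.98 and 0.09. Dlst, which had the smallest p of the mitochondrial set after Pcx, read -1.57 and 0.00, against -0.67, 0.51 and 1.07 (difference -1.08 ± 0.72, adjusted p = 0.650). Of the 22 members clear of sham in wild-type hearts 12 (54.5%) had the same sign in knockout hearts, and 0 were clear of sham there. Of all 1487 genes clear of sham in wild-type hearts 64.9% had the same sign in knockout hearts, and 38.4% were clear of sham there. Whether the response differs between genotypes was not tested, since the tables have different units.

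The knockout arrays varied widely within groups. Sham replicate 1 held the lowest value of 16 of the 24 mitochondrial and shuttle genes, and the means over the set were -0.90 and 0.86 on the CLP arrays, against -1.49, 0.48 and 0.85 on the sham arrays. The glycolytic means were -0.75 and 0.79 on the CLP arrays, against -1.05, 0.35 and 0.37 on the sham arrays. Standard errors of the 42 differences ran from 0.43 to 1.83 log units, and both set medians changed sign when single arrays were left out (glycolytic -0.75 to 0.50, mitochondrial and shuttle -0.92 to 0.88). Without CLP replicate 2 they were 0.50 and 0.88, and the mitochondrial and shuttle median was 0.30 without sham replicate 2 and 0.52 without sham replicate 3. Of 14 macrophage and monocyte markers 13 had positive differences here, with summed levels of 2.60 and 2.00 on the CLP arrays, against -0.22, 0.04 and -0.63 on the sham arrays. Of 10 neutrophil markers 9 had positive differences, at 2.91 and 1.57 on the CLP arrays, against -0.07, -0.49 and -0.19 on the sham arrays. Of 9 fibroblast markers 7 had negative differences, at -0.39 and -1.46 on the CLP arrays, against 0.28, 0.95 and 0.42 on the sham arrays. Of 8 endothelial markers 7 had negative differences, at -0.46 and -2.15 on the CLP arrays, against 1.49, 1.80 and 0.56 on the sham arrays. Of 10 cardiomyocyte markers 5 had negative differences, at -1.55 and 0.53 on the CLP arrays, against -0.56, 0.32 and 0.64 on the sham arrays. Of 5 adipocyte markers 3 had negative differences. The part of these cells in the members' values was not tested. Of the other pathway genes Pdk4 read -0.58 and -6.92 after CLP, against 0.02, 2.09 and 1.57 after sham surgery, with a difference of -4.97 ± 1.75 (adjusted p = 0.332).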

How the data were processed

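Total RNA of 15 mouse hearts was hybridised to short oligonucleotide arrays, 1 per heart, and groups were taken from the sample titles. The authors deposited a value table of 22690 probe sets for each genotype. In the deposited wild-type table the unit is a standardised score: once a linear step per array is undone, each probe set has mean 0 and SD 1 over the 9 arrays. The deposited knockout table holds a score from -7.78 to 8.18 of the kind that a log scale centred on each probe set gives. Base, software and processing are not given in the sources used here. After 64 control probe sets had been removed, the 20380 probe sets paired with 1 gene were averaged into 12393 genes.

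Groups were compared in R 4.3.3 with lmFit of limma 3.58.1 and Benjamini-Hochberg adjustment over all genes at 0.05. The wild-type arrays were fitted together, with ordinary statistics on 6 residual degrees of freedom because probe sets are scaled to equal SD. The knockout arrays were fitted with eBayes and without CLP replicate 1, whose values are largely predicted by the other columns (R squared 0.746, against 0.202 or less for the others). A list is described by counts and its median.

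The members, the lists and the tests were chosen with earlier results of these data known. Values per array and statistics are given for each member past the threshold, for the 6 glycolytic and 6 other members of smallest p for wild-type CLP against sham, for 3 and 3 in every other comparison, and for paralogous isoforms whatever their values; other members were added after their values were seen. Alternatives tried were every probe set, the moderation, the arrays' standardisation, RNA-end signal as a covariate, fewer arrays in the fit, control probe sets kept (chosen after seeing the data), and each array left out.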

Additional observations from a re-analysis of the deposited data

Results flagged for a closer look

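Triose-phosphate isomerase (Tpi1) stood out because, as a gene mean, its 2 septic wild-type groups lay on opposite sides of sham on every array. The lowest Max Dep value was only just above sham. Its difference from sham was 0.45 ± 0.39 in Max Dep hearts and -1.57 ± 0.39 in Min Dep hearts, and the direct difference of Max Dep minus Min Dep did not pass (2.03 ± 0.39, adjusted p = 0.313, and 0.231 to 0.686 over the alternatives). Its single probe sets gave -0.51, 0.56 and 1.31 in Max Dep hearts and, in the same order, -2.41, -1.03 and -1.27 in Min Dep hearts. The first of these probe sets was thus below sham in both groups.

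Pyruvate carboxylase (Pcx) has 4 further probe sets among the arrays' control probe sets, which were kept out of all gene values. On them the mean CLP minus sham difference in wild-type hearts was -1.95. Their mean per array was -0.95, -0.62 and -0.52 in Max Dep hearts and -0.58, -0.26 and -1.02 in Min Dep hearts, against 0.48, 1.84 and 1.56 in sham hearts, so every septic array lay below every sham array. One of the 4 passed singly (-2.09 ± 0.32, adjusted p = 0.0394), and the mean of all 5 Pcx probe sets gave -1.80 ± 0.41 (adjusted p = 0.0970). In knockout hearts the mean of all 5 gave 1.06 ± 0.45 (adjusted p = 0.430), beside 2.46 ± 0.51 on the regular probe set alone.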

How the results depend on the processing

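No paired analysis was possible because the labels carry no replicate numbers shared between groups. The number of members past the threshold for wild-type CLP was 1, and it was 10 with every probe set tested, 0 under eBayes moderation, 3 with the arrays' standardisation undone, 0 with RNA-end signal as a covariate, 2 with all CLP arrays as 1 group, and 0 to 5 with an array left out. Over all genes these settings called 513 probe sets and 0, 179, 1 and 102 genes, against 89. Counts over all genes with a wild-type array left out are not given here. With every probe set tested, Max Dep against sham gave 3 members in place of 0, where 1.08% of all probe sets passed. Min Dep against sham gave 4 in place of 0, where 0.55% of all probe sets passed. Leaving out an array gave 0 to 0 members for Max Dep and 0 to 2 for Min Dep (2 without Min Dep replicate 2). For Max Dep against Min Dep and for knockout CLP leaving out an array gave 0 to 0, and keeping knockout CLP replicate 1 gave 2, with 295 genes in all. With every probe set the glycolytic median was -0.095 for wild-type CLP and -0.0023 for Max Dep. With the covariate the Min Dep glycolytic median was -0.64, and the mitochondrial and shuttle median was -1.72 for wild-type CLP and -1.70 for Min Dep. With the standardisation undone the Min Dep mitochondrial and shuttle median was -1.27 and the glycolytic median of Max Dep minus Min Dep 0.28. With an array left out the glycolytic median ran from -0.96 to -0.47 (wild-type CLP), -0.55 to -0.16 (Max Dep), -1.22 to -0.54 (Min Dep), 0.45 to 0.71 (Max Dep minus Min Dep) and -0.75 to 0.50 (knockout), and the mitochondrial and shuttle median from -1.72 to -1.38, -1.75 to -1.34, -1.75 to -1.33, 0.03 to 0.34 and -0.92 to 0.88. No named member changed sign in these alternatives, where with every probe set a member stands at its probe set of smallest p. Other probe sets of a member can have the other sign, as for 9 members in wild-type CLP and 8 in knockout CLP, Cs among the 8. The causes of these changes were not tested, and a fit of fewer arrays or of probe sets tests other values. Signal over background is unknown.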
